A study of Mus musculus with 4 samples.

Results

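The nuclear factor I (NFI) family of the mouse has 4 genes, Nfia, Nfib, Nfic and Nfix, and all 4 were found among the 16449 genes of a long-read count table from embryonic forebrain. The family was taken up because Nfix was among the most abundant transcription factors and was lower in the libraries labelled Tut1 knockout. The difference between the groups therefore chose the members, and it is given below as a description without p-values. The tissue was the dorsal and medial pallium, the parts of the forebrain wall that form neocortex and hippocampus, dissected from mouse embryos at E11.5 and read by Nanopore sequencing of poly(A)-enriched RNA. There were 2 libraries labelled WT and 2 labelled Tut1 knockout. The study's sequencing statistics list all 4 libraries as homozygous for a Tut1 allele whose second exon is flanked by loxP sites, with Emx1-Cre in those labelled knockout, while its methods and the labels call the controls only wild-type or WT. Emx1-Cre is active in the neural stem cells of the dorsal and medial pallium and in their progeny, so blood, vessel and mesenchymal cells in the dissected piece keep the gene. The number of embryos behind a library is not stated, and nothing states that the replicates were separate litters, so p-values measure the spread between these libraries only.

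NFI proteins are transcription factors that bind DNA as dimers. They share a closely similar amino-terminal part that holds the DNA-binding and dimerization domain, and they differ in the carboxy-terminal part that activates or represses transcription. In the embryonic brain Nfia, Nfib and Nfix are known for driving radial glia, the neural stem cells of the ventricular zone, toward differentiation and later toward glia, and mice that lack them have malformed hippocampus and corpus callosum. Nfic is best known for its role in tooth root formation.

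The likeness of the 4 genes is shown by a stretch of 60 bases from exon 2 of each, the exon that encodes most of the DNA-binding domain (GENCODE M21, GRCm38, written 5′ to 3′ on the strand of the gene). The stretch is shown because, of all gap-free coding windows of this length, it differs least between the 4 genes. Capitals mark the 12 positions at which the 4 genes do not all carry the same base.
Nfia, chr4:97783139-97783198, plus strand: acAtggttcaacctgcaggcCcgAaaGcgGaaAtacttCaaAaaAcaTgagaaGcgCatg
Nfib, chr4:82498653-82498712, minus strand: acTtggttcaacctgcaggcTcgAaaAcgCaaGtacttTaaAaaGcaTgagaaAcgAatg
Nfic, chr10:81420682-81420741, minus strand: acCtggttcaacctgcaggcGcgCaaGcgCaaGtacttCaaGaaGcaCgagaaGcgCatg
Nfix, chr8:84772199-84772258, minus strand: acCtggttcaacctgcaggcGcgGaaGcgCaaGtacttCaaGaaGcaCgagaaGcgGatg
All 12 differences lay at the third base of a codon, and 0 of the 20 codons differed in the amino acid they encode. Nfic and Nfix differed at 2 positions, Nfia and Nfic at 8, and each other pair at 9. Over the aligned length of the whole coding sequence, the stretch included, identity of bases ran from 65.9% for Nfia and Nfib to 71.5% for Nfia and Nfix, and identity of residues from 62.4% for Nfic and Nfix to 73.6% for Nfia and Nfix. The longest coding sequences encode 509 residues in Nfia, 570 in Nfib, 461 in Nfic and 494 in Nfix.

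How reads that match several genes were assigned is not stated, so the sequence that members share bears on how far their counts can be told apart. Of the 25-base words in the annotated transcripts of Nfix, 0.163% (12 of 7377) also occurred in another member, all of them in Nfic. The share was 0.18% in Nfic (12 of 6658), 0.00667% in Nfib (1 of 15000) and 0.00915% in Nfia (1 of 10934). Words shared with genes outside the family made up 1.16% in Nfia, 0.793% in Nfib, 0.135% in Nfic and 0.447% in Nfix. Each member's transcripts were thus nearly free of words found in the other members.

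The 4 genes lie apart from each other except that Nfia and Nfib share a chromosome. Nfia (ENSMUSG00000028565) spans 97772734 to 98118874 of chromosome 4 on the plus strand, with a longest transcript of 9526 bases in 11 exons. Nfib (ENSMUSG00000008575) spans 82290173 to 82705750 of chromosome 4 on the minus strand, with a longest transcript of 9116 bases in 11 exons. Nfic (ENSMUSG00000055053) spans 81396186 to 81455635 of chromosome 10 on the minus strand, with a longest transcript of 6237 bases in 9 exons. Nfix (ENSMUSG00000001911) spans 84699876 to 84800344 of chromosome 8 on the minus strand, and its longest transcript is the shortest of the 4, with 5476 bases in 11 exons.

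Few reads were counted in each library, while the study's sequencing statistics list far more reads for each. The counts thus hold only a small part of the reads, and why is not stated. Total counts over genes ran from 305642 to 397150, and from 12442 to 13158 genes had at least 1 count. The targeted gene went against the labels, as Tut1 had 6 and 11 reads in WT, against 29 and 25 in the knockout-labelled libraries (log2 fold change 1.71 ± 0.40, SE, edgeR adjusted p = 0.0113, and 0.133 to 0.2 without WT replicate 1 or either knockout-labelled library), and reads summed over the gene do not reveal the loss of exon 2. The groups are therefore named by their labels throughout. Emx1, whose promoter drives the Cre, had 6 and 7 reads in WT, against 1 and 2 in the knockout-labelled libraries, too few to be tested. WT replicate 1 stood apart by sex, with 64 Xist counts where the others had 0, and with 0 counts of the Y-linked gene Eif2s3y where the others had 36, 42 and 27. Of 5878 genes abundant enough to be tested, 121 (2.06%) passed an adjusted p below 0.05 in edgeR's quasi-likelihood test, 82 of them (1.4%) higher and 39 (0.663%) lower in the libraries labelled knockout, or 105 higher and 24 lower when libraries were scaled by total counts. Leaving out knockout-labelled replicate 1 left 3 of these calls. With a library left out, its group held 1 sample, which was assumed to vary like the other libraries, so that a call may end because less was measured.

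All 4 members passed the filter on low counts. Nfix, a regulator of neural stem cells in the developing and the adult hippocampus, was the most abundant member in every library. It had 697 and 573 counts in WT replicates 1 and 2, against 308 and 338 in the knockout-labelled libraries. In CPM, which are counts over the tested genes scaled to 1e+06 per library with TMM-adjusted library sizes, Nfix stood at 2111 and 1600 in WT, against 818 and 1174 in the knockout-labelled libraries. The groups did not overlap, and the higher knockout-labelled library lay at 0.734 times the lower WT library. The spread within groups was wide as well, since the higher replicate was 1.32 times the lower in WT and 1.43 times the lower in the libraries labelled knockout.

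The group means of Nfix were 1856 ± 361 CPM in WT, against 996 ± 251 CPM in the knockout-labelled libraries (SD, n = 2 each), so that the second mean was 53.7% of the first. The fitted log2 fold change was -0.90 ± 0.14 (SE), and 126 of the tested genes (2.14%) had a lower one. Nfix was the 1 member of 4 among the genes called lower, beside the 0.663% of all tested genes called lower and the 2.06% called in either direction. This call is what the members were chosen on, and nothing is read from it. Without knockout-labelled replicate 1, the library with the lowest Nfix level, the log2 fold change was -0.66 and the gene was no longer called, and it was not called by DESeq2 either, at -0.90. Without WT replicate 1, the library that stood apart by sex and had the highest Nfix level, the value was -0.70.

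Nfia, known for its part in the onset of gliogenesis, had 155 and 146 reads in WT, against 134 and 107 in the knockout-labelled libraries. Its levels were 469.5 and 408 CPM in WT, against 356 and 372 CPM in the knockout-labelled libraries. The groups did not overlap, but the gap was small, as the higher knockout-labelled library lay at 0.911 times the lower WT library. The means were 439 ± 43.6 and 364 ± 10.98 CPM (SD, n = 2 each), the log2 fold change was -0.27 ± 0.18 (SE), and 25.5% of the tested genes had a lower one. Both knockout-labelled libraries lay below both WT libraries for 20.8% of all tested genes, and for 2 of the 4 members, Nfia and Nfix.

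Nfib, which acts with Nfia in the formation of the corpus callosum and also in lung maturation, had 174 and 173 reads in WT, against 159 and 142 in the knockout-labelled libraries. Its levels were 527 and 483 CPM in WT, against 422.5 and 493 CPM in the knockout-labelled libraries. Here the groups overlapped, because the second library labelled knockout lay above the second WT library. The means were 505 ± 31.0 and 458 ± 49.96 CPM (SD, n = 2 each), and the log2 fold change was -0.15 ± 0.17 (SE).

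Nfic was the scarce member, with 16 and 16 reads in WT, against 17 and 11 in the knockout-labelled libraries. In CPM it stood at 48.5 and 44.7 in WT, against 45.2 and 38.2 in the knockout-labelled libraries, and the groups overlapped. Its log2 fold change was -0.14 ± 0.39 (SE), the largest SE of the 4 members. At such low counts a small difference in Nfic could not be detected. Of the tested genes, 36.1% had a lower log2 fold change than Nfib and 36.5% a lower one than Nfic.

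**Figure D1:**
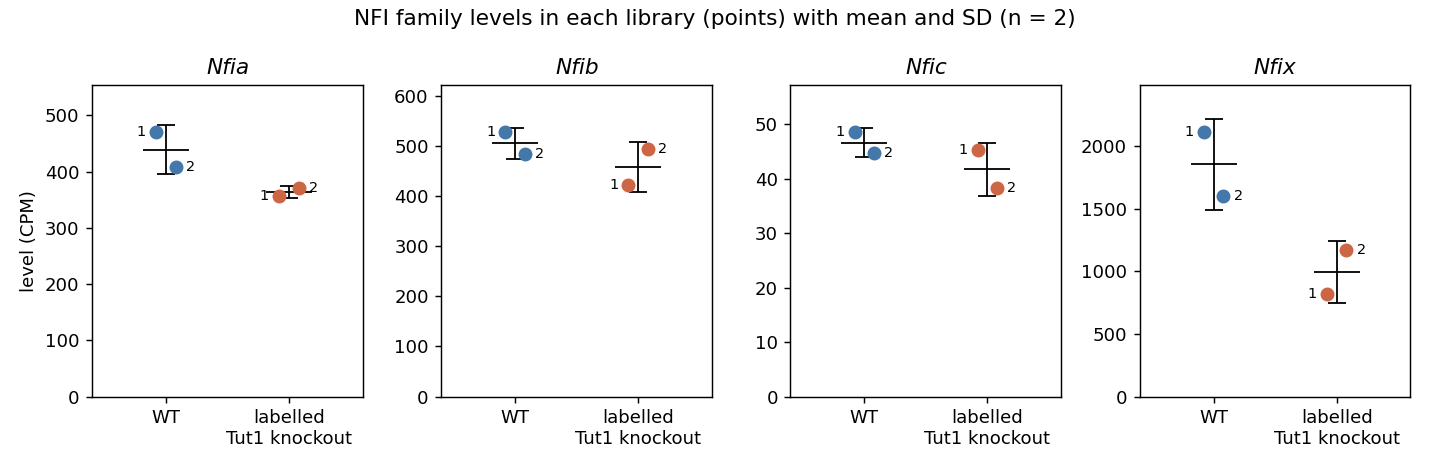
Level of each NFI gene in CPM (linear axis from 0, with its own scale in each panel), with 1 numbered point per library and bars at the mean and SD of each group (n = 2). The Nfix knockout-labelled points (818 and 1174 CPM) lie below its WT points (2111 and 1600 CPM), while the points of Nfib and Nfic overlap between groups.

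Levels of different genes were compared per length, as CPM per kilobase of the longest annotated transcript. On this scale the order in WT was Nfix, Nfib, Nfia and Nfic, at 339 ± 66.0, 55.4 ± 3.40, 46.1 ± 4.58 and 7.47 ± 0.43 (SD, n = 2), and it was the same in the libraries labelled knockout, at 182 ± 45.9, 50.2 ± 5.48, 38.2 ± 1.15 and 6.69 ± 0.79. Nfib and Nfia are the neighbours in this order that lie closest. Their ranges did not overlap, at 53.0 to 57.8 for Nfib and 42.8 to 49.3 for Nfia in WT, and at 46.4 to 54.1 and 37.4 to 39.0 in the other group. Nfix and Nfib lay far apart in WT, with a ratio of 6.12 per kilobase. A long read stands for 1 molecule whatever its length, so the plain CPM is given too, and there the ratio was 3.67 with the order unchanged.

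The rank of the members was read among 70 regulators of transcription, the 4 NFI genes and 66 factors of forebrain progenitors that had a row in the table. Not all of them bind DNA themselves, as the Id genes are included. In plain CPM, Nfix ranked 1 in WT and 1 in the knockout-labelled libraries. Per kilobase it ranked 2 in WT and 3 in the knockout-labelled libraries. The factor above it in WT was Ybx1, a binder of DNA and RNA, at 452.5 per kilobase against 339 for Nfix. Next below it in WT was Lhx2, a selector of cortical fate, at 319 per kilobase, and in the libraries labelled knockout Lhx2 stood at 114 and Hmga1, a chromatin protein of dividing progenitors, at 225 beside 182 for Nfix. Nfib ranked 13 and 12 per kilobase, Nfia 15 and 15, and Nfic 41 and 47, in WT and in the knockout-labelled libraries.

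**Figure D2:**
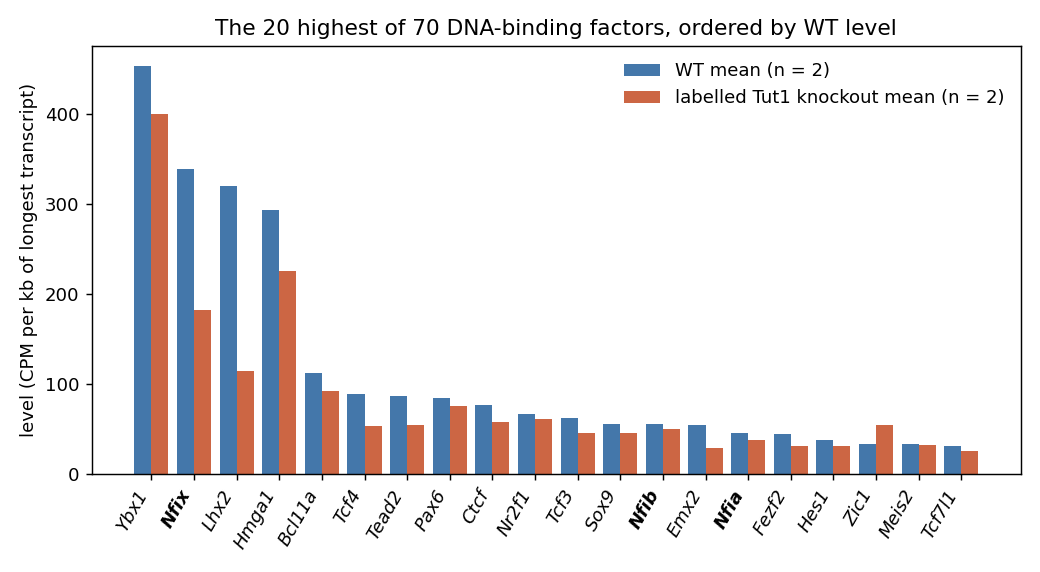
Mean level in CPM per kilobase of the longest transcript (n = 2 per bar) of the 20 factors highest in WT, of the 70 ranked, with blue bars for WT, orange bars for the knockout-labelled libraries and the NFI names in bold. Nfix (339 in WT, 182 in the knockout-labelled libraries) is among the 4 factors that stand far above the rest in WT, while in the other group Lhx2, at 114, lies near Bcl11a, at 92.8, and Nfib (55.4 and 50.2) and Nfia (46.1 and 38.2) lie among the lower bars.

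The 4 genes together had 1042 and 908 reads in WT, against 618 and 598 in the knockout-labelled libraries, which was 0.26% ± 0.0406 and 0.176% ± 0.0283 of all counts (SD, n = 2 each). In CPM the family sum was 3156 and 2536 in WT, against 1642 and 2077 in the knockout-labelled libraries. Without Nfix the sum was 1045 and 936 in WT, against 824 and 903 in the knockout-labelled libraries, so that the part of the family other than Nfix had means of 990.4 ± 77.3 and 863 ± 56.0 CPM.

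Nfix held 66.9% of the family's counts in WT replicate 1 (95% Wilson interval 64.0 to 69.7, for counting error only) and 63.1% in WT replicate 2 (59.9 to 66.2). In the libraries labelled knockout it held 49.8% (45.9 to 53.8) and 56.5% (52.5 to 60.4). The intervals leave out the spread between libraries, and the share of Nfix mostly restates the difference in Nfix on which the family was chosen. The mean share was 65.0% ± 2.68 in WT and 53.2% ± 4.73 in the knockout-labelled libraries (SD, n = 2 each), a difference of 11.8 percentage points that ranged from 8.48 to 15.2 when 1 library at a time was left out.

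The shares of the other members were correspondingly larger, since shares of a sum cannot all move one way. Nfib held 16.7% and 19.1% of the family's counts in WT, against 25.7% and 23.7% in the knockout-labelled libraries, although its own mean CPM was not higher there. Nfia held 14.9% and 16.1% in WT, against 21.7% and 17.9% in the knockout-labelled libraries. Nfic held between 1.54% and 2.75% in every library. Set against Nfia and Nfib alone, Nfix had 2.12 and 1.8 times their summed counts in WT, against 1.05 and 1.36 times in the knockout-labelled libraries.

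**Figure D3:**
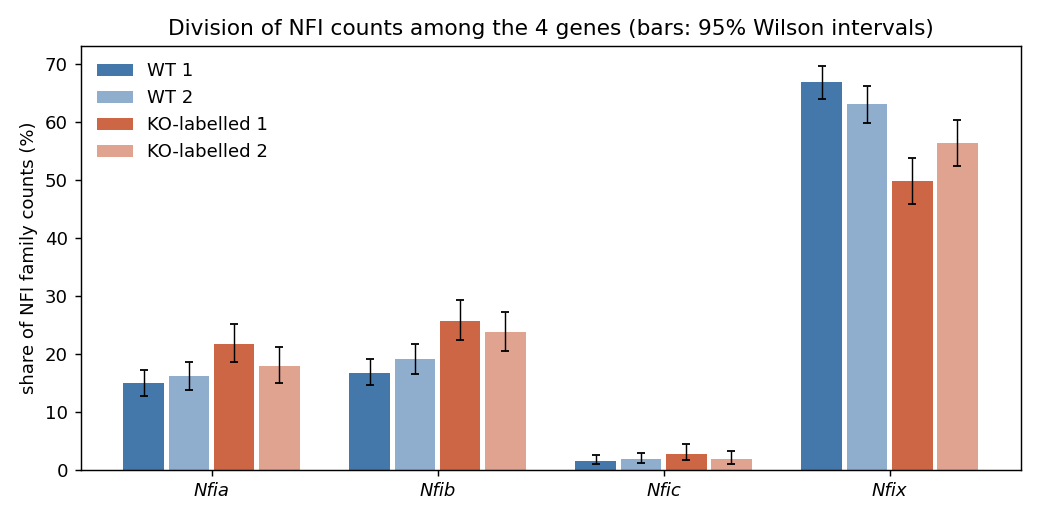
Share of the summed NFI counts held by each gene in each library, in percent, with 95% Wilson intervals for counting error. The Nfix share is 66.9% and 63.1% in WT, against 49.8% and 56.5% in the knockout-labelled libraries, and the shares of Nfib and Nfia are larger in the latter.

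As a measure of likeness of pattern, the Euclidean distance between mean-centred log2 CPM over the 4 libraries was used, for which 0 means the same pattern. Nfia and Nfib lay 0.173 apart, Nfia and Nfic 0.236, and Nfib and Nfic 0.306. Nfix lay 0.731 from Nfia, 0.812 from Nfib and 0.941 from Nfic, distances that mostly restate the difference between the groups on which the family was chosen. Among 3693 tested genes with a mean of at least 50 CPM, the 5 nearest to Nfix were Aldoc, Fut9, Tcf4, Jmjd6 and Fhl1, at distances of 0.131 to 0.193. Aldoc encodes an aldolase found in radial glia and astrocytes, Fut9 a fucosyltransferase that makes the stem cell antigen LewisX, Tcf4 a bHLH transcription factor, Jmjd6 a hydroxylase of nuclear proteins, and Fhl1 a LIM domain protein.

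Tcf4 was the most abundant of these, with 285 and 235 reads in WT, against 139 and 158 in the knockout-labelled libraries. Aldoc had 38 and 35 reads in WT, against 16 and 19 in the knockout-labelled libraries. Like Nfix, all 5 were higher in WT replicate 1 than in WT replicate 2 and lowest in knockout-labelled replicate 1 when scaled to CPM. The log2 fold changes of the 5 ran from -1.15 to -0.74. They were picked for this likeness over 4 libraries, which share their depth and scaling, and no test was made of it.

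Reads from genes that overlap or flank a member cannot always be told from its own where strand is not used in counting, and whether it was used is not stated. The start of Nfia overlaps E130114P18Rik on the opposite strand, which had 95 and 96 reads in WT, against 57 and 74 in the knockout-labelled libraries (log2 fold change -0.47 ± 0.22, SE, edgeR adjusted p = 0.326). Nfib overlaps Gm11266, with 1, 0, 2 and 1 counts. Nfix overlaps Lyl1, a bHLH factor of blood cells, with 1 and 2 reads in WT, against 0 and 0 in the knockout-labelled libraries, and G430095P16Rik, with 0, 2, 0 and 0. The genes that overlap Nfib and Nfix thus held at most 2 reads in any library.

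Nfix ends 67 bases from the end of Trmt1, a tRNA methyltransferase gene on the opposite strand. Trmt1 had 25 and 31 reads in WT, against 38 and 26 in the knockout-labelled libraries (log2 fold change 0.24 ± 0.30, SE, edgeR adjusted p = 0.804), far fewer than Nfix itself. On its other side, 31177 bases away, Gadd45gip1, a mitochondrial ribosome protein gene, had 301 and 309 reads in WT, against 277 and 233 in the knockout-labelled libraries (-0.20 ± 0.14, SE, edgeR adjusted p = 0.585). Neither tested neighbour of Nfix was called.

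Of the 8 nearest tested genes on either side of the members, 1 passed the threshold, beside 2.06% of all tested genes. This was Dohh, which encodes deoxyhypusine hydroxylase and lies 7833 bases from Nfic, with 3 and 6 reads in WT, against 15 and 19 in the knockout-labelled libraries (log2 fold change 1.95 ± 0.52, SE, edgeR adjusted p = 0.0338). The call of Dohh was lost without WT replicate 1 or either knockout-labelled library (edgeR adjusted p of 0.2 to 0.409), after thinning (0.138), with the replicate block (0.0595) and with limma-voom (0.196). Celf5, an RNA-binding protein gene 3591 bases from Nfic on its other side, had 11 and 14 reads in WT, against 28 and 17 in the knockout-labelled libraries (0.89 ± 0.38, SE, edgeR adjusted p = 0.249). The values of the genes that flank Nfia and Nfib, which were Mysm1, Tm2d1, Mpdz and Zdhhc21, lay between -0.36 and 0.27 on the log2 scale, and none of these 4 was called.

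Genes linked to NFI factors in brain development were taken from a list of 33 drawn from general knowledge, not from binding data of this tissue. Of them 28 had a row in the table and 16 could be tested. In edgeR's test over all genes, 3 passed the threshold as higher in the libraries labelled knockout and 0 as lower, beside 1.4% and 0.663% of all tested genes. The median log2 fold change of the 16 was 0.37, against -0.014 over all tested genes, and 10 were higher and 6 lower. The summed level of the 28 genes with a row was 2781 and 2849 CPM in WT, against 3460 and 3657 CPM in the knockout-labelled libraries. Map1b alone, which was not called, held 978 and 1067 CPM of this sum in WT, against 1321 and 1466 CPM.

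The 3 genes called are Apoe, Slc1a2 and Ncam1. Apoe, which encodes the lipid carrier apolipoprotein E and is expressed by macrophages and microglia as well as by radial glia and astrocytes, had 10 and 15 reads in WT, against 61 and 34 in the knockout-labelled libraries (log2 fold change 1.96 ± 0.33, SE, edgeR adjusted p = 0.000316). Slc1a2, the glutamate transporter of astrocytes and their precursors, had 5 and 6 reads in WT, against 32 and 17 in the knockout-labelled libraries (2.17 ± 0.45, SE, edgeR adjusted p = 0.00381). Ncam1, a cell adhesion molecule of neurons and other cells, had 62 and 65 reads in WT, against 142 and 96 in the knockout-labelled libraries (0.95 ± 0.20, SE, edgeR adjusted p = 0.00494). In each of the 3 the groups did not overlap, which adds little because these genes were picked as called higher. Without knockout-labelled replicate 1 the 3 calls ended, with edgeR adjusted p of 0.174, 0.306 and 0.23. The call of Ncam1 was also lost without WT replicate 2 (edgeR adjusted p = 0.0563), without knockout-labelled replicate 2 (0.0586), after thinning to the smallest library (0.0509) and with DESeq2 (0.153), and that of Slc1a2 with limma-voom (0.0518). DESeq2 gave Slc1a2 no adjusted p.

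The other abundant genes of the list did not pass. Map1b, a microtubule-associated protein of growing neurites and the most abundant of them, had 323 and 382 reads in WT, against 497 and 422 in the knockout-labelled libraries (log2 fold change 0.44 ± 0.13, SE, edgeR adjusted p = 0.0602). Sox9, which acts with Nfia at the onset of gliogenesis, had 74 and 86 reads in WT, against 77 and 49 in the knockout-labelled libraries (-0.30 ± 0.22, SE, edgeR adjusted p = 0.599). The stem cell regulators Ezh2 and Bbx, both listed as repressed by NFI proteins or bound by them, had log2 fold changes of -0.39 ± 0.24 (edgeR adjusted p = 0.512) and -0.55 ± 0.24 (0.262). Apcdd1, a Wnt inhibitor, stood at 0.51 ± 0.21 (edgeR adjusted p = 0.231), Cdh2, the N-cadherin gene, at 0.29 ± 0.26 (0.687), and Dab1, an adaptor of Reelin signalling, at -0.086 ± 0.23 (0.918). Map1b passed with scaling by total counts (edgeR adjusted p = 0.0242) and with limma-voom (0.0481).

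**Figure D4:**
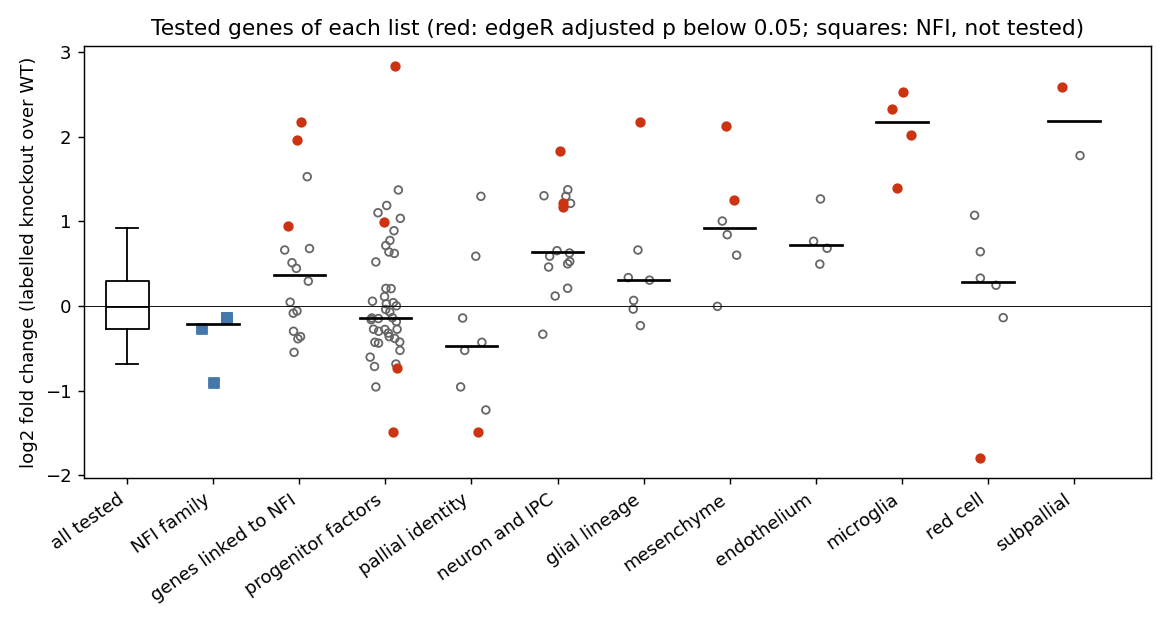
Log2 fold change (libraries labelled knockout over WT) of the tested genes of each list, with a line at the median of the list. Red points passed an edgeR adjusted p below 0.05, grey rings did not, blue squares are the NFI genes, for which no test is given, and the box shows the quartiles of all tested genes with whiskers to the 5th and 95th percentile. The genes linked to NFI have a median of 0.37, and 3 of their 16 tested members are red, all of them higher.

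NFI dimers bind the palindrome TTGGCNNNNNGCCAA, in which N is any base, and single NFI proteins also bind TTGGCA. Both were searched on both strands of the RefSeq windows of 300 bases around gene starts (GRCm38.p6). The palindrome was found in 12 of 32851 windows (0.0365%), in 0 of the 6013 windows of tested genes and in 0 of the 26 windows that belonged to 21 of the 33 listed genes. TTGGCA or its complement TGCCAA was found in 14.1% of all windows, in 10.3% of those of tested genes, and in 5 of the 26 (19.2%), in 12 of 87 windows (13.8%) of genes called higher and in 4 of 42 (9.52%) of genes called lower. The start windows of 3 family members, 6 in all, held neither. With so few windows the shares differ by a few matches, a match to 6 bases is a description and not a bound site, and windows of this length do not cover enhancers.

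The 5 matches in the listed genes are shown with the bases around them because these genes have been linked to NFI factors in brain development. TTGGCA is in capitals, and each line is written 5′ to 3′ on the strand of the gene.
Apoe, chr7:19698435-19698470: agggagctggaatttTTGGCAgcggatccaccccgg
Ezh2, chr6:47595252-47595280: accgcacgTTGGCAaaagaacaaagacag
Gpm6a, chr8:54954629-54954664: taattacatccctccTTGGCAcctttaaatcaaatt
Insc, chr7:114745571-114745606: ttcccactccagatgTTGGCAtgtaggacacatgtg
Mmd2, chr5:142608837-142608872: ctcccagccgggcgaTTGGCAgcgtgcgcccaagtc
Of the 3 listed genes that were called, Apoe holds the short site in 1 of its 3 RefSeq windows, with its first base at -57 from an alternative start. In the GENCODE annotation this base lies 733 bases inside the gene. Ezh2, which was not called, holds the site at -242 from its RefSeq start, which is 69 bases inside the GENCODE span. Insc was not analysed here.

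In bulk tissue, fewer cells that express a gene and less of its RNA per cell cannot be told apart, so the markers of the cell types in the piece are given beside the NFI values. The 11 markers of pallial identity with a row had a summed level of 2066 and 1829 CPM in WT, against 1180 and 1375 CPM in the knockout-labelled libraries. Lhx2 made most of this difference, and without it the other 10 markers of the list summed to 1012 and 1070 CPM in WT, against 898 and 1007 CPM in the knockout-labelled libraries. Of the 8 tested, 6 were lower and 1 was called, Lhx2, with 348 and 272 reads in WT, against 106 and 106 in the knockout-labelled libraries (log2 fold change -1.49 ± 0.18, SE, edgeR adjusted p = 6.48e-07). Of all tested genes, 0.663% were called lower. Pax6, the radial glia factor, had 137 and 119 reads in WT, against 132 and 93 in the knockout-labelled libraries, and Emx2, a factor of the dorsal forebrain, had 48 and 62 and then 23 and 31. Of the 7 tested besides Lhx2, 5 were lower and 2 higher. The higher ones were Eomes, with 55 and 45 and then 79 and 66 reads, and Tbr1, with 8 and 17 and then 29 and 30. Both are also among the markers of neurons and intermediate progenitors, and they offset the lower ones in the sum. Reads of pallial markers were thus present in all 4 libraries.

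Among 43 tested progenitor factors outside the family, 2 were called lower, Lhx2 and Tcf4 (-0.74 ± 0.18, SE, edgeR adjusted p = 0.0124), and 2 higher, Zeb2 (0.99 ± 0.27, SE, edgeR adjusted p = 0.0402) and Pbx3 (2.84 ± 0.65, SE, edgeR adjusted p = 0.00926). Over all tested genes, 0.663% were called lower and 1.4% higher. The 66 factors with a row summed to 8206 and 7983 CPM in WT, against 6676 and 7134 CPM in the knockout-labelled libraries, and the median log2 fold change of the 43 was -0.14, with 24 lower and 19 higher. Without knockout-labelled replicate 1, these 4 calls ended. The calls of Zeb2 and Pbx3 were lost whichever library was left out (edgeR adjusted p of 0.129 to 0.266 and of 0.0625 to 0.246) and after thinning, that of Zeb2 also with no filter (0.0582), with DESeq2 (0.58) and with the replicate block (0.0614), and that of Pbx3 also with limma-voom (0.109). The call of Tcf4 was lost with DESeq2 (0.236), after thinning (0.0837) and without WT replicate 1 (0.291). The median over the 4 NFI genes was -0.21, with 4 of 4 lower.

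Markers of neurons and intermediate progenitors were higher in sum in the libraries labelled knockout. Of 16 tested, 15 were higher and 3 were called, and the 28 with a row in the table summed to 2254 and 2134 CPM in WT, against 3519 and 3338 CPM in the knockout-labelled libraries. Of all 5878 tested genes, 2846 were higher and 1.4% were called higher. The smallest p among them was that of Mapt, the microtubule-associated protein tau, with 33 and 43 reads in WT, against 162 and 101 in the knockout-labelled libraries (1.83 ± 0.22, SE, edgeR adjusted p = 8.85e-07), which was called under every setting tried. Dpysl3, a protein of growth cones, stood at 1.22 ± 0.24 (edgeR adjusted p = 0.00237) and Dcx, a microtubule protein of young neurons, at 1.17 ± 0.24 (0.00461), and neither passed with DESeq2 (0.0827 and 0.153). Dcx was also lost without knockout-labelled replicate 2 (edgeR adjusted p = 0.0899). Of the markers of the glial lineage, whose formation NFI factors promote later in development, 7 were tested and 1 was called, Slc1a2. The 13 with a row summed to 854 and 1022 CPM in WT, against 1159 and 1063 CPM in the knockout-labelled libraries, and the astrocyte marker Aldh1l1 had 1, 0, 1 and 0 counts.

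Markers of other tissues differed between the groups as well. The counts below stand beside 1.4% of all tested genes called higher and 0.663% called lower. All 4 tested microglia and macrophage markers were called higher, the 11 with a row summed to 96.9 and 106 CPM in WT, against 420 and 351 CPM in the knockout-labelled libraries, and among them Cx3cr1 had 6 and 6 reads in WT, against 32 and 27 in the knockout-labelled libraries (2.33 ± 0.42, SE, edgeR adjusted p = 0.000755). The other calls were the macrophage genes Aif1 (2.02 ± 0.41, edgeR adjusted p = 0.00316), Csf1r (1.39 ± 0.30, 0.0062) and Tyrobp (2.53 ± 0.62, 0.0189). The complement genes C1qa, C1qb and C1qc, which mark mature microglia, had 0 to 5 counts in any library. The 4 endothelial markers tested were all higher and none was called, and the 12 of that list with a row summed to 270 and 302 CPM in WT, against 510 and 448 CPM in the knockout-labelled libraries. Mesenchyme markers had 2 of 6 called higher, the collagen genes Col1a2 (2.12 ± 0.47, edgeR adjusted p = 0.00742) and Col5a1 (1.25 ± 0.33, 0.0335), and the 16 with a row summed to 260.5 and 500 CPM in WT, against 808 and 549 CPM in the knockout-labelled libraries. The 8 subpallial markers with a row summed to 15.2 and 75.4 CPM in WT, against 191 and 97.3 CPM in the knockout-labelled libraries, with 1 of 2 called higher, Dlx1 (2.59 ± 0.55, edgeR adjusted p = 0.00494), and Slc32a1 at 0 in every library. The 9 red cell markers with a row summed to 1384 and 1869 CPM in WT, against 2309 and 1521 CPM in the knockout-labelled libraries, with 1 of 6 called, the embryonic globin gene Hbb-bh1 as lower (-1.80 ± 0.46, edgeR adjusted p = 0.0279). Of the 18 listed genes called in all, 1 was still called without knockout-labelled replicate 1, which was Mapt. Without WT replicate 1 or knockout-labelled replicate 2, the calls of Col1a2, Col5a1, Tyrobp, Csf1r and Dlx1 were lost as well (edgeR adjusted p of 0.0574 to 0.364). Other settings that ended calls were limma-voom for Col1a2 and Tyrobp (0.0872 and 0.119), DESeq2 for Col5a1 and Csf1r (0.587 and 0.282, with no adjusted p for Cx3cr1, Aif1, Tyrobp, Col1a2, Dlx1, Hbb-bh1 and Pbx3), the replicate block for Col5a1 and Tyrobp (0.0595 and 0.0557), and thinning for Col5a1, Dlx1 and Hbb-bh1 (0.0907, 0.0796 and 0.184). Hbb-bh1 was also lost without WT replicate 2 (0.565) or knockout-labelled replicate 2 (0.0899). The part of these cell types in the NFI values was not tested. Knockout-labelled replicate 1, in which Nfix was lowest, had the highest sum of microglia, mesenchyme, endothelial, subpallial and red cell markers of the 4 libraries. Its sums of neuron and intermediate progenitor markers (3519 CPM) and of glial lineage markers (1159 CPM) were the highest as well, and that of pallial identity markers (1180 CPM) was the lowest.

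Nfix was the member with the lowest log2 fold change under every setting tried. Over 8 other settings with all 4 libraries, Nfix ranged from -0.95 to -0.84, Nfia from -0.33 to -0.21, Nfib from -0.19 to -0.085 and Nfic from -0.17 to -0.081. Scaling by total counts gave the values nearest to 0 and thinning to the smallest library those farthest from it. Leaving out 1 library moved Nfix to between -1.18 and -0.66, and the values of the other members stayed between -0.38 and -0.034. These settings reuse the 4 libraries on which Nfix was chosen.

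**Figure D5:**
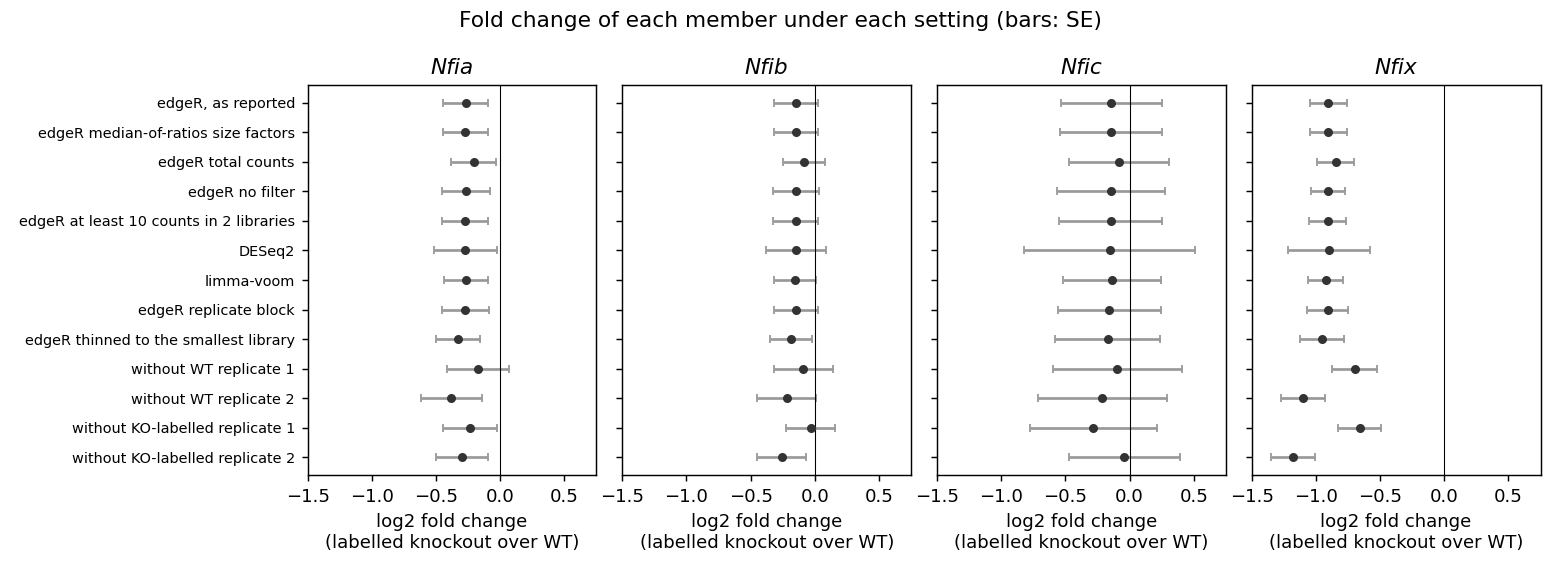
Log2 fold change (libraries labelled knockout over WT) of each NFI gene under the main setting and the alternatives, with bars of 1 standard error, 1 panel per gene and 1 row per setting. Nfix lies between -1.18 and -0.66, and the other members lie between -0.38 and -0.034, below 0 in every setting.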

How the data were processed

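The authors deposited a table of raw counts per gene (unnormalized) for the 4 libraries, made per the methods of the study by aligning Nanopore reads to the Ensembl mouse transcriptome (GRCm38) with minimap2 and processing them with FLAIR. How isoforms were summed and whether strand was used are not given in the sources used here. Columns were matched to samples by the labels' descriptions.

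Counts were fitted with edgeR 4.0.16 in R 4.3.3 (filterByExpr with a minimum count of 10 and minimum total of 15, TMM, glmQLFit and glmQLFTest, two-sided, no covariate), with Benjamini-Hochberg adjustment over 5878 genes and a threshold of 0.05. The procedure was tested on simulated data. Log2 CPM used a prior count of 2. GENCODE M21 gave symbols, spans and lengths for 16436 genes (99.9%), and promoter windows came from RefSeq GRCm38.p6. The members and gene lists were chosen with earlier results of these data known. Named were the 4 members, Tut1, Emx1, up to 5 called genes per list, the 8 most abundant genes linked to NFI, overlapping and flanking genes, and the 5 genes nearest to Nfix in pattern. The remaining markers and the sex-linked genes were named after their values were seen. Alternatives were other scalings and filters, DESeq2 1.42.0, limma-voom (limma 3.58.1), the replicate number as a block, thinning, and leaving out each library.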

Additional observations from a re-analysis of the deposited data

How the results depend on the processing

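The number of genes past the threshold was 121, and 12 with DESeq2, which gave an adjusted p for 2915 of the 5878 genes (218 at an unadjusted p below 0.05), 44 after thinning to the smallest library, 76 with the replicate number as a block, and 3 to 108 when 1 library was left out, lowest without knockout-labelled replicate 1. Listed genes past the threshold numbered 18, and 3 with DESeq2, 11 after thinning, and 1 to 21 when 1 library was left out. Calls without WT replicate 1 numbered 75, and without knockout-labelled replicate 2 they numbered 35. Scaling by total counts moved the share of calls that were higher from 67.8% to 81.4%. Same-numbered libraries showed no shared shift over genes (correlation of their deviations -0.0614), which cannot tell whether they shared a litter or a batch. The block gave log2 fold changes of -0.91 for Nfix, -0.27 for Nfia, -0.15 for Nfib and -0.16 for Nfic. Leaving out 1 library gave -0.38 to -0.17 for Nfia and -0.28 to -0.042 for Nfic. The WT ratio of Nfix to Nfib was 6.12 per kilobase of the longest transcript, 3.67 in CPM and 7.8 with the mean length of the coding transcripts, with the order of the members unchanged. No member changed sign. Some genes that were not called did. When 1 library was left out, the log2 fold change ran from -0.28 to 0.10 for Dab1, from -0.070 to 0.62 for Cdh2, from -0.17 to 0.56 for Mysm1, from -0.16 to 0.22 for Tm2d1 and from -0.27 to 0.076 for Zdhhc21, which was 0.32 after thinning. Of the other values of single genes beside the family, 329 kept their direction and their side of the threshold, 70 lost a call and 2 gained it. The cause of these changes was not tested. With 11 to 17 counts a library, the low counts limit what can be said of Nfic.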
